A study of Mus musculus with 30 samples.

Results

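Tumours taken 7 days after a single intravenous dose of an unmasked interleukin-12 (IL-12) control molecule were compared with tumours taken 7 days after vehicle, across all genes. The samples were chosen by their titles, which name the treatment and the day, and they make up 10 of the 30 libraries of the series: 5 unmasked and 5 vehicle, each from its own mouse. All mice were 10-week-old female C57BL/6J animals that carried MC38, a mouse colon carcinoma cell line, under the skin of the right flank, and they were dosed once the tumours measured 200 to 300 mm3. The unmasked molecule, which the labels call a positive control, was given at 0.03 mg/kg, and the vehicle mice received no drug. A further 3 groups of 5 enter as points of reference, namely unmasked and vehicle tumours of day 4, and day 7 tumours given mXTX301, a masked IL-12 mouse surrogate, at 0.39 mg/kg. Polyadenylated RNA of whole tumour pieces was sequenced, so MC38 cells, infiltrating immune cells, stroma and any adjoining host tissue were read together. In such bulk samples more cells of a type and more RNA per cell cannot be told apart, which holds for every gene below.

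IL-12 is a dimeric cytokine made mainly by dendritic cells and macrophages. Its receptor, on activated T cells and natural killer (NK) cells, pairs the chains IL-12Rβ1 and IL-12Rβ2 and signals through the kinases JAK2 and TYK2 to the transcription factor STAT4, which with T-bet turns on interferon-γ. Interferon-γ in turn acts on nearly all cells through JAK1 and JAK2, raising antigen presentation, chemokines that draw T cells, and GTPases that defend cells against intracellular microbes.

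Library totals were 61826759 to 82813424 counts in the vehicle group and 58831688 to 66360478 in the unmasked group. Levels are given as CPM, counts per 1000000 on library sizes scaled by the trimmed mean of M-values (TMM), and changes as log2 differences ± standard error from 1 model over all 30 libraries. CPM is not corrected for gene length, so levels are compared between groups and never between genes. A gene is said to have risen or fallen when the edgeR quasi-likelihood test gave a Benjamini-Hochberg adjusted p under 0.05 over the 15482 genes tested. Of the epithelial and colon markers, Epcam averaged 0.835 CPM in vehicle and 0.691 CPM in unmasked tumours. No Cdx2 read was counted in either group. The 12 tested markers of that list summed to 111.5 to 155.3 CPM in vehicle and 103 to 126.4 CPM in unmasked tumours, so other members were expressed. Keratins of skin (Krt5, Krt14, Krt1 and Krt10) summed to over 100 CPM in 1 vehicle library (replicate 5) and 2 unmasked libraries (replicates 3 and 5), and no skin gene passed the test between the groups. Skeletal muscle genes summed to 53.3 to 240 CPM in vehicle and 211 to 887 CPM in unmasked tumours, ranges that overlap. All 14 muscle genes were higher in unmasked tumours, by 1.14 to 2.55 on the log2 scale with a median of 1.92. Only 1 of them, Des, passed the test (7.14%, against 45% of all genes). That call was lost without vehicle replicate 1, 2 or 4 or unmasked replicate 5 (adjusted p = 0.0511 to 0.0601), while Actn3, Mylpf and Tnni2 passed in a fit on the 10 libraries alone (adjusted p = 0.00120, 0.00582 and 0.0306). Counts of the main gene lists are also given with muscle RNA as a covariate or without the skin-holding libraries. The second fit left out all 8 of the 30 libraries over 100 CPM of skin keratins, 3 of them in these groups. Both fits were chosen after seeing the data.

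Of the 15482 genes, 6973 (45%) passed the test, 3595 (23.2%) higher and 3378 (21.8%) lower in unmasked tumours. The 2 directions were alike in number and unlike in size. At least a 2-fold change was seen for 1748 of the genes that rose and for 193 of those that fell, and at least a 4-fold change for 638 and 46. The groups did not overlap in CPM for 3917 genes (25.3%). These shares of 45%, 23.2%, 21.8% and 25.3% are the background for the list counts below. The median log2 difference over all genes was 0.01. With the skin-holding libraries left out 2998 genes rose and 2802 fell. Leaving out the 12 of 30 libraries whose skin keratins were over 10 times the median of the series, 6 of them in these groups, kept 2 vehicle and 2 unmasked libraries of day 7, and 1518 genes then rose and 897 fell. Over all genes 2415 passed in that small fit in place of 6973, so its list counts do not compare with the shares above. In it 6 of 13 interferon-γ signalling genes and 5 of 14 regulatory T cell genes rose. So did 3 of 14 conventional dendritic cell genes and 3 of 10 mast cell genes. Of the fatty acid genes 3 of 10 fell, and none of the ribosome biogenesis or oxidative phosphorylation genes fell.

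**Figure D1:**
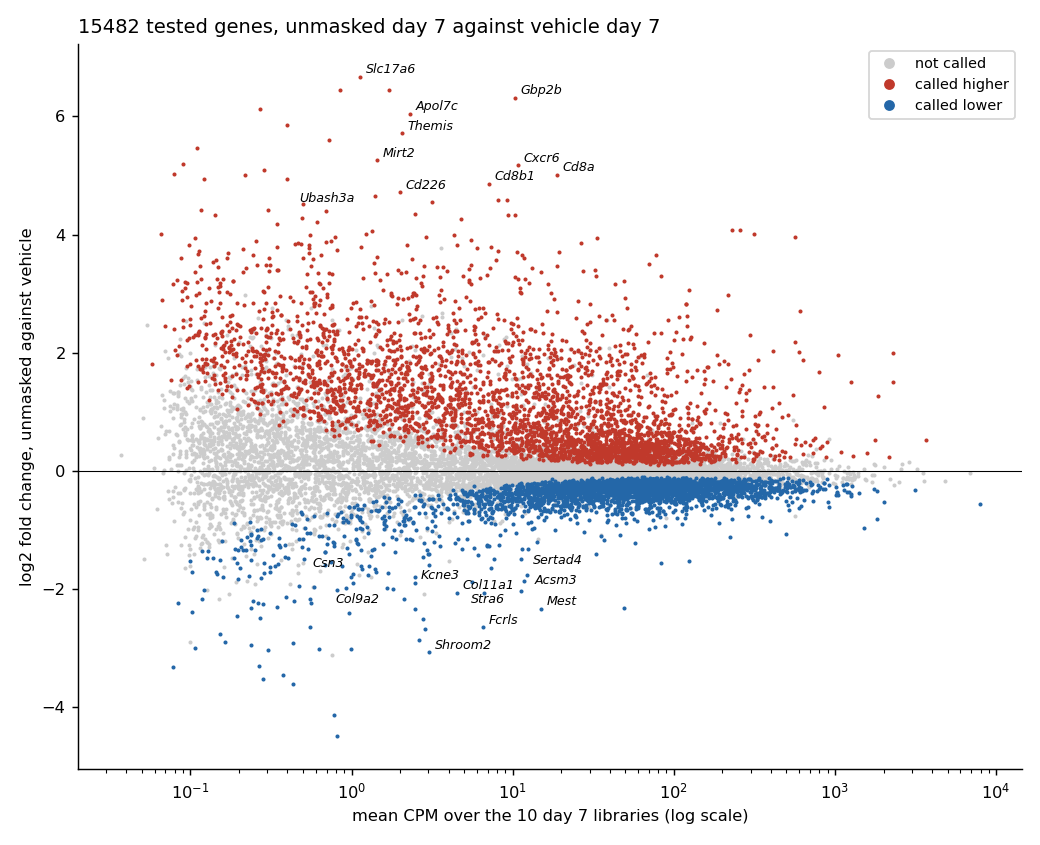
Each point is 1 of the 15482 genes, with its mean CPM over the 10 libraries on a log axis and its log2 difference, unmasked minus vehicle at day 7, with genes that rose and fell in colour. At least a 4-fold change was seen for 638 genes that rose and 46 that fell. Slc17a6 gave the largest rise of the genes ranked in the text, at 6.67.

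The 10 largest rises were taken among genes that averaged at least 1 CPM and whose groups did not overlap. Predicted genes, clone names and pseudogenes were left out. By size they were Slc17a6, Gbp2b, Apol7c, Themis, Mirt2, Cxcr6, Cd8a, Cd8b1, Cd226 and Ubash3a. Themis, Cxcr6, Cd8a, Cd8b1, Cd226 and Ubash3a are genes of T cells and are described with them. Slc17a6, which encodes the vesicular glutamate transporter VGLUT2 (chr7:51621830-51671126, GRCm38.p6), had 0.0119, 0.0137, 0, 0 and 0.0750 CPM in the vehicle libraries and 1.20, 3.20, 1.42, 2.37 and 3.04 CPM in the unmasked ones. Its vehicle level was close to the limit of detection, which makes the fold uncertain (log2 difference 6.67 ± 0.81, adjusted p = 4.29e-07). Apol7c, which belongs to the apolipoprotein L family and is a marker of mature dendritic cells, went from a mean of 0.0673 to 4.53 CPM (adjusted p = 2.03e-06).

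The 10 largest falls by the same rule were Shroom2, Fcrls, Mest, Col9a2, Col11a1, Stra6, Kcne3, Acsm3, Sertad4 and Csn3. Mest, an imprinted gene expressed from the paternal copy in growing tissue (chr6:30733506-30748466), had 26.2, 37.2, 22.6, 19.96 and 19.5 CPM with vehicle and 2.74, 4.38, 6.99, 4.525 and 6.18 CPM with unmasked drug. Every unmasked library lay below every vehicle library, by a log2 difference of -2.34 ± 0.30 (adjusted p = 1.14e-06). Fcrls, an Fc receptor-like gene of myeloid cells, ranged over 4.025 to 25.9 CPM in vehicle and 0.417 to 2.93 CPM in unmasked tumours, against the direction of most macrophage genes. The cartilage collagens Col9a2 and Col11a1 fell by 2.17 and 2.06 on the log2 scale. The sizes of 2 falls rested on 1 vehicle library each. Stra6 was at 51.5 CPM in vehicle replicate 2, without which its log2 difference was -1.15 (adjusted p = 0.0411) in place of -2.03. Shroom2 was at 23.1 CPM in vehicle replicate 4 and at 0.90 to 1.23 CPM in the other vehicle libraries, and without that library its log2 difference was -0.65 (adjusted p = 0.143).

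Genes of the IL-12 receptor and of its signalling were raised in unmasked tumours, both receptor chains among them. Of 21 such genes 14 rose and 1 fell (71.4% called, against 45% of all genes), with a median log2 difference of 1.08. Il12rb1, the chain shared with the IL-23 receptor (chr8:70808360-70823542), had 33.0, 37.5, 39.8, 47.05 and 34.7 CPM in the 5 vehicle libraries and 145, 164.5, 134, 132 and 143 CPM in the 5 unmasked ones. The groups were far apart relative to their spread (3.75-fold, log2 difference 1.91 ± 0.12, adjusted p = 2.27e-11). Il12rb2, the chain that carries the STAT4 docking site, was scarce with vehicle at 0.191, 0.315, 0.109, 0.357 and 0.180 CPM and reached 2.09, 5.78, 3.22, 5.37 and 7.09 CPM with drug (20.3-fold, adjusted p = 6.29e-08). Of the transducers, Jak2 rose 1.58-fold, Tyk2 1.91-fold and Stat4 4.12-fold. Tbx21, which encodes T-bet, lay at 0.218 to 0.999 CPM with vehicle and 2.855 to 6.225 CPM with drug (8.71-fold, adjusted p = 2.05e-06).

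Receptor genes of IL-18, a cytokine that acts with IL-12 to bring out interferon-γ, rose as well. Il18r1, its ligand-binding chain, had 0.846, 0.862, 0.327, 0.2435 and 0.945 CPM with vehicle and 6.23, 25.1, 8.83, 18.2 and 19.35 CPM with drug (23.9-fold, adjusted p = 1.39e-07), and the accessory chain Il18rap rose 2.85-fold. Il18bp, the secreted decoy that neutralises IL-18, rose 5.85-fold, while the cytokine gene Il18 itself rose 2.12-fold with overlapping groups. Among the IL-12 family subunits Il12b, Il27 and Ebi3 rose 3.16-, 3.60- and 3.18-fold. Il12a, which encodes the p35 subunit of IL-12, was the gene of this list that fell. Its vehicle libraries had 4.16, 2.16, 0.171, 0.714 and 0.165 CPM and the unmasked ones 0.0334, 0.0609, 0.105, 0.168 and 0.0451 CPM, so the difference (log2 -4.13 ± 0.98, adjusted p = 0.00123) was carried by vehicle replicates 1, 2 and 4, and the groups overlapped at their edges.

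Interferon-γ and its targets rose together. Ifng (chr10:118441046-118445894) had 0.369, 0.397, 0.07775, 0.308 and 0.120 CPM in vehicle and 3.09, 5.875, 4.71, 9.07 and 7.58 CPM in unmasked tumours. Every unmasked library was above every vehicle library, and the difference was 23.4-fold (log2 4.55 ± 0.55, adjusted p = 5.54e-07). Of 28 interferon-γ response genes 25 rose and none fell, against a background of 23.2% higher over all genes, and 22 did not overlap between the groups. Without the skin-holding libraries 23 rose.

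Irf1, an interferon-induced transcription factor (chr11:53770014-53778374), had 279, 246, 282, 284 and 296 CPM with vehicle and 552.5, 636, 614, 689 and 597 CPM with drug (log2 1.16 ± 0.07, adjusted p = 1.04e-11). Socs1, the feedback inhibitor of the JAK kinases, lay at 24.2 to 27.4 CPM with vehicle and 37.7 to 59.1 CPM with drug (1.99-fold). Both genes were already expressed with vehicle and differed by near 2-fold with little spread. Batf2 rose 3.10-fold, Serpina3f, a serine protease inhibitor, 20.1-fold, and Upp1, uridine phosphorylase, 2.21-fold. Of the receptor chains Ifngr1 rose 1.34-fold and Ifngr2 did not pass the test (58.4 and 60.5 CPM). Cxcl11, Parp14 and Gch1 were the response genes that did not pass.

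All 17 interferon-inducible GTPases tested rose, with no overlap between the groups for any of them, and all 17 rose as well without the skin-holding libraries and with the muscle covariate. Their median log2 difference was 1.80, and the list level (mean log2 CPM of the members) ran from 4.53 to 5.29 over vehicle and from 6.98 to 7.46 over unmasked libraries. Guanylate-binding proteins and immunity-related GTPases attack the vacuoles of intracellular microbes. Gbp2b (chr3:142594816-142619179) gave the largest rise among them, with 0.465, 0.315, 0.0622, 0.3895 and 0.0150 CPM in vehicle and 7.35, 35.4, 16.5, 20.6 and 22.25 CPM in unmasked tumours (log2 6.31 ± 0.65, adjusted p = 6.05e-08). Gbp10 rose 24.0-fold, Gbp8 14.5-fold and Gbp4 8.40-fold, while Gbp3, Irgm1, Irgm2 and Tgtp2 stayed between 1.90- and 2.03-fold. Gbp2 with Gbp2b, and Tgtp1 with Tgtp2, are near-identical copies between which reads may have been split, so their separate values are uncertain.

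The promoters of these genes were searched because the members moved together. RefSeq windows of 300 bases (250 before and 50 after the start, GRCm38.p6) were found for 11840 of the 15482 genes and searched on both strands for TTCNNNGAA, the core of the interferon-γ-activated element known as GAS, and for GAAANNGAA, part of the interferon-stimulated response element (ISRE-like below). Some genes had several windows (14966 in all), and a gene was counted when any of its windows held a match. The GAS core was present in 8.41% of the 11840 genes and the ISRE-like motif in 8.86%. Among the 10 GTPase genes with a window, 6 held the GAS core and 10 the ISRE-like motif. Among 18 interferon-γ response genes the numbers were 7 and 8, and among 17 type I interferon-stimulated genes 3 and 11. They were 2 and 5 among 18 MHC class I genes. Among 12 MHC class II genes they were 1 and 1 (8.33% each), close to the shares of all genes, and among 26 cell cycle genes 1 and 1. Of the 2735 genes that rose and had a window, 9.69% and 11.1% held them. The GTPase genes are paralogs with related promoters and are not independent of each other, and both motifs shared bases in 22 of the 137 genes that held both. The stretches upstream of the start of 5 genes are shown to set this layout beside the values, with bases of a match to either motif in capitals, each read 5′ to 3′ on the gene's strand.
Irf1, plus strand, chr11:53769764-53770013: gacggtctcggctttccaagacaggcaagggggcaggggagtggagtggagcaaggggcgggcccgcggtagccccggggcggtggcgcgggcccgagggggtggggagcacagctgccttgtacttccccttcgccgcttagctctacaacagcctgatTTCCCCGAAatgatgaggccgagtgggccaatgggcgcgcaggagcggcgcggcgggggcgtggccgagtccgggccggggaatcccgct
Socs1, minus strand, chr16:10785537-10785786: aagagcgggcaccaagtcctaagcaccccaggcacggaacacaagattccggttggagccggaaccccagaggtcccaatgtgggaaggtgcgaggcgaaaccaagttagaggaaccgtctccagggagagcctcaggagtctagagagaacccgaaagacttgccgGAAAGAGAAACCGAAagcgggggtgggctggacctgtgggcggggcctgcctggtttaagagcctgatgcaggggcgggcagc
Gbp2b, plus strand, chr3:142594597-142594815: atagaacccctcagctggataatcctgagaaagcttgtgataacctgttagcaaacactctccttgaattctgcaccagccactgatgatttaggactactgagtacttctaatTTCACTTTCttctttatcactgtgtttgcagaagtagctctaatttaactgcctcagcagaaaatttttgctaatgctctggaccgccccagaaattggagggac
Igtp, plus strand, chr11:58199306-58199555: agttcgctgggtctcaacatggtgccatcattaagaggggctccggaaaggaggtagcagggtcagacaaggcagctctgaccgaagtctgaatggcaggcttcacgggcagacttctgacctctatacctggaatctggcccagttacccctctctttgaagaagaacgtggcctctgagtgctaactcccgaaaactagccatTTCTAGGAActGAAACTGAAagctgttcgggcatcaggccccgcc
Irgm2, plus strand, chr11:58214727-58214976: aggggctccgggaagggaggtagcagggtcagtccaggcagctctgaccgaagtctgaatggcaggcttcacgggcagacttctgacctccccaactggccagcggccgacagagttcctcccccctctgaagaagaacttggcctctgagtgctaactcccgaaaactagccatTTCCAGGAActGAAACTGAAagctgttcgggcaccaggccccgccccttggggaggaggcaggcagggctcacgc
In Irf1 the capitals mark a GAS core, in Socs1 a pair of overlapping ISRE-like matches, and in Gbp2b an ISRE-like match on the opposite strand. Igtp and Irgm2, which lie near each other on chromosome 11, carry a GAS core followed closely by an ISRE-like match. Igtp had 207, 144, 204, 218 and 221 CPM with vehicle and 524, 545, 550.4, 598 and 428 CPM with drug, and Irgm2 183, 146, 177, 199 and 174.5 CPM and 357, 359.6, 375, 398 and 294 CPM. A match describes letters in the window and is not evidence of binding.

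Among 22 genes known chiefly as targets of type I interferon 0 rose and 8 fell in the fit over all libraries, with a median log2 difference of -0.32, against 21.8% lower over all genes. Usp18, which restrains the type I receptor, averaged 146 ± 31.3 CPM (SD, n = 5) with vehicle and 96.1 ± 21.0 CPM with drug (log2 -0.61 ± 0.16, adjusted p = 0.00329). Oasl1 and Oas1a, members of the family that senses viral RNA, fell by 0.67 and 0.53 on the log2 scale. No gene of the list had groups without overlap, and Oasl2, Ifi44 and Oas3 were within 0.04 of 0. These counts were unstable. With the 2 libraries a group that hold least skin 2 rose and 0 fell. In that fit Usp18, Oasl1 and Oas1a stayed lower, at log2 differences of -0.37, -0.51 and -0.31, and did not pass the test. Without the skin-holding libraries 1 rose and 4 fell, and with the muscle covariate 12 fell. Leaving out 1 library gave 3 that fell without unmasked replicate 2, 4 that fell and 1 that rose without unmasked replicate 5, 2 that rose without vehicle replicate 3 and 1 without vehicle replicate 5.

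Antigen presentation through MHC class I was raised broadly but modestly. Of 21 genes 18 rose and none fell (85.7% called, against 45% of all genes), with a median log2 difference of 0.61. The heavy chain gene H2-K1 had 3056, 3123, 2951, 2961 and 2912 CPM with vehicle and 4293, 4529, 3930, 4437 and 4257 CPM with drug (1.43-fold, adjusted p = 5.68e-06), so a gene that was already abundant rose further without overlap. B2m, the light chain, rose 1.43-fold and the peptide transporter genes Tap1 and Tap2 rose 1.72- and 1.635-fold. The immunoproteasome subunits Psmb8 and Psmb9 rose 1.60- and 1.76-fold, and Psmb10 1.15-fold with overlap. Nlrc5, the transactivator of class I genes, rose 2.51-fold, and H2-T23, which encodes the ligand Qa-1 of NKG2A receptors, 4.68-fold. The chaperones Calr and Pdia3 and the peptide trimmer Erap1 did not pass the test. Classical class I genes resemble each other closely, and reads could have been shared among them.

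Among 16 MHC class II genes 12 rose and 1 fell (81.2% called, against 45% of all genes), with a median log2 difference of 2.01. H2-Ab1, the β chain of I-A (chr17:34263227-34269418), had 47.5, 45.0, 35.9, 27.5 and 26.5 CPM with vehicle and 236.5, 766, 538, 828 and 580.2 CPM with drug. Unmasked replicate 1 was the lowest of its group and still several times the highest vehicle library (16.15-fold, log2 4.01 ± 0.35, adjusted p = 5.31e-09). H2-Aa, H2-Eb1 and Cd74, the invariant chain, rose 16.8-, 16.95- and 15.5-fold. Ciita, the master regulator of the class, rose with them and lay at 2.28 to 3.555 CPM with vehicle and 20.1 to 47.8 CPM with drug (12.99-fold, adjusted p = 4.98e-10). The peptide exchange genes H2-DMa and H2-DMb1 rose 5.875- and 3.56-fold and Ctss, the protease that cleaves the invariant chain, 4.53-fold. Rfxap, part of the RFX complex, fell by 0.22 on the log2 scale, a call lost without vehicle replicate 1 or 4 or unmasked replicate 1 or 2, and its partner Rfx5 rose 1.24-fold.

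T cell genes gave some of the highest folds. Of 21 tested 20 rose and none fell (95.2% called, against 45% of all genes). The groups did not overlap for 18 of the 21, against 25.3% of all genes, and the median log2 difference was 3.23. The list level ran from -0.96 to -0.11 over vehicle and from 1.74 to 3.33 over unmasked libraries, and all 20 rose as well without the skin-holding libraries. Cd8a, a chain of the co-receptor of killer T cells (chr6:71373427-71379171), had 1.775, 1.64, 0.560, 0.958 and 0.660 CPM with vehicle and 16.1, 53.2, 24.5, 41.9 and 46.6 CPM with drug (32.3-fold, log2 5.01 ± 0.59, adjusted p = 3.96e-07). Its partner chain Cd8b1 rose 29.05-fold. The CD3 chains Cd3e, Cd3d and Cd3g rose 15.9-, 13.6- and 20.1-fold, and Themis and Ubash3a, which tune T cell receptor signals, 52.5- and 25.1-fold from vehicle means of 0.0732 and 0.104 CPM. Cd4, the co-receptor of helper T cells (chr6:124864693-124888247), rose less, 6.71-fold (adjusted p = 1.19e-05). Its vehicle libraries had 0.405, 0.5475, 0.715, 0.4545 and 1.155 CPM and the unmasked ones 0.618, 4.60, 4.41, 6.86 and 5.54 CPM, and unmasked replicate 1 lay within the vehicle range. Sit1 was the T cell gene that did not pass the test.

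Of 17 effector genes of killer cells 9 rose, none fell and 8 did not pass the test. That is 52.9% called, against 45% of all genes called and 23.2% called higher. Fasl, the death ligand, rose 10.1-fold, Nkg7 and Ctsw, granule genes of killer lymphocytes, 8.155- and 9.52-fold, and Gzmk, a granzyme of memory T cells, from 0.0175 to 1.69 CPM. Gzmb, the main killer protease, had 32.05, 39.7, 9.70, 20.3 and 9.01 CPM with vehicle and 19.4, 18.55, 19.7, 21.55 and 33.9 CPM with drug. All unmasked libraries lay inside the vehicle range, and the 95% interval of the log2 difference was -0.81 to 0.87, which leaves room for changes in either direction. The other clustered granzymes, Gzmc to Gzmg, had vehicle means of 9.025 to 55.1 CPM and none passed. Prf1, the pore-forming perforin, had 16.0, 21.2, 4.32, 8.765 and 3.73 CPM with vehicle and 20.6, 25.2, 18.9, 27.2 and 42.0 CPM with drug, a 2.47-fold rise near the threshold (adjusted p = 0.0384) and with overlap. Its call was lost without any 1 of vehicle replicates 3, 4 and 5 and unmasked replicates 2, 4 and 5 (adjusted p = 0.0539 to 0.111), without the skin-holding libraries (adjusted p = 0.189) and with the muscle covariate (adjusted p = 0.0771). Granzymes of this cluster are close copies, and reads could have been shared among them.

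NK cell receptors rose, whereas the gene most restricted to NK cells did not pass the test. Of 15 genes 11 rose (73.3% called, against 45% of all genes), with a median log2 difference of 2.34. Klrc1, which encodes NKG2A, lay at 0.435 to 2.33 CPM with vehicle and 8.43 to 19.7 CPM with drug (11.9-fold), Klrd1, its partner CD94, rose 5.06-fold and Klrk1, which encodes NKG2D, 5.68-fold. Activated CD8 T cells carry these receptors too. Ncr1, which encodes NKp46, averaged 0.8515 ± 0.478 CPM and 1.12 ± 0.333 CPM (95% interval of the log2 difference -0.58 to 1.37), and Klrb1c, which encodes NK1.1, averaged 0.904 and 0.481 CPM (adjusted p = 0.179). Eomes and Xcl1 did not pass either.

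**Figure D2:**
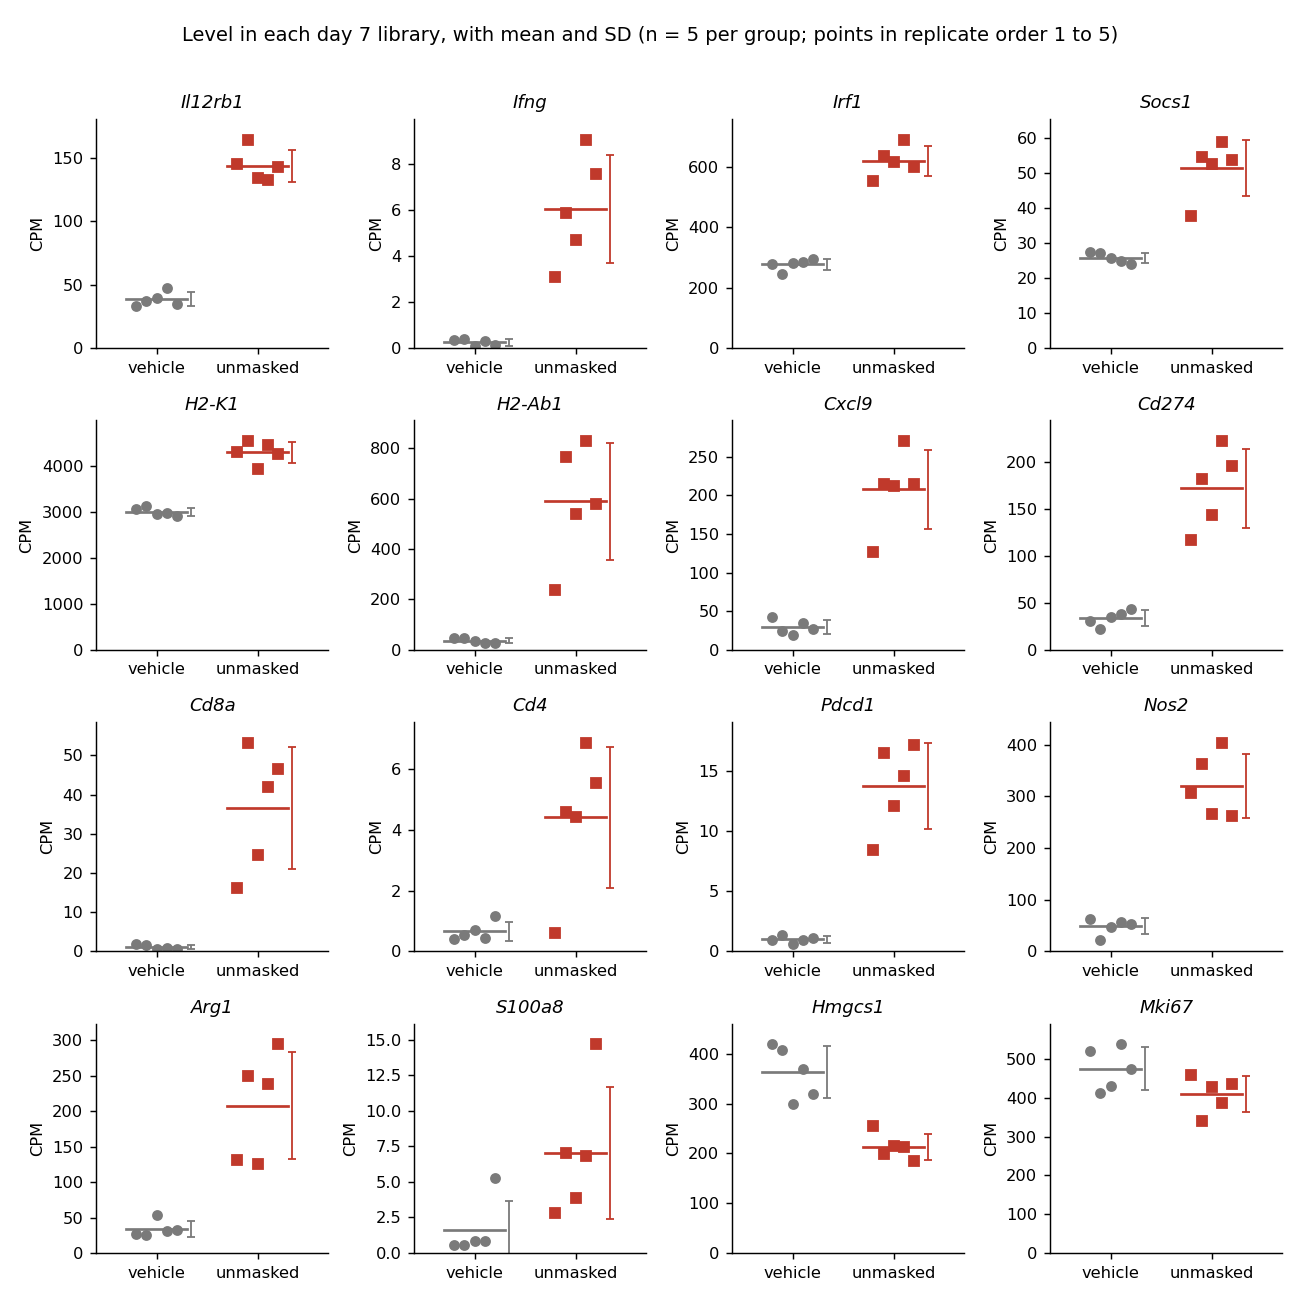
CPM of 16 genes in each of the 5 vehicle (grey) and 5 unmasked (red) day 7 libraries, with the mean and SD of each group and 1 axis per gene. The groups stand apart for Il12rb1, Ifng, Irf1, H2-Ab1, Cxcl9, Cd8a and Nos2, and they overlap for Cd4, S100a8 and Mki67.

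Inhibitory receptors and ligands rose with the T cell genes. Of 17 tested 15 rose and 1 fell (94.1% called, against 45% of all genes), with a median log2 difference of 2.18. Pdcd1, which encodes PD-1 (chr1:94038305-94052553), had 0.965, 1.37, 0.6065, 0.925 and 1.065 CPM with vehicle and 8.365, 16.5, 12.1, 14.5 and 17.15 CPM with drug (13.9-fold, adjusted p = 1.91e-07). Its ligand gene Cd274, which encodes PD-L1 (chr19:29362107-29388095), had 30.8, 21.7, 34.6, 38.1 and 43.4 CPM and 117, 182, 143, 222.5 and 196 CPM (5.11-fold, adjusted p = 5.92e-10). Receptor and ligand therefore both rose without overlap. Lag3, Havcr2 and Tigit rose 3.80-, 3.10- and 4.895-fold, and Cd96 and Cd226, which share ligands with Tigit, 9.61- and 26.3-fold. Lgals9, which encodes galectin-9, fell, with 113.5 to 126 CPM with vehicle and 83.8 to 92.7 CPM with drug (log2 -0.45 ± 0.08), and Nectin2 did not pass the test.

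Of 21 co-stimulation and activation genes 15 rose and 1 fell (76.2% called, against 45% of all genes). Il7r, the survival receptor of memory T cells, rose 10.5-fold, Icos 7.52-fold, Cd27 6.72-fold and Cd86, a ligand of CD28 on presenting cells, 4.09-fold. Tcf7, which marks naive and stem-like T cells but is expressed in other cells as well, fell by 0.20 on the log2 scale, a call lost without unmasked replicate 2 or 4. Among 14 genes of regulatory T cells 8 rose and none fell (57.1% called, against 45% of all genes called and 23.2% called higher). The groups did not overlap for 3 of the 14, against 25.3% of all genes. Foxp3, which defines the lineage, did not pass. It averaged 0.489 ± 0.271 CPM with vehicle and 0.533 ± 0.343 CPM with drug (95% interval of the log2 difference -0.75 to 0.99). Members that rose, such as Ctla4 (4.52-fold) and Entpd1 (4.93-fold), are also made by activated effector T cells and myeloid cells.

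Chemokines that draw T cells rose in 9 of 12 cases (75% called, against 45% of all genes). Cxcl9, the CXCR3 ligand most dependent on interferon-γ (chr5:92321331-92328079), had 42.2, 24.6, 18.5, 34.5 and 26.2 CPM with vehicle and 127, 214, 213, 270.2 and 214 CPM with drug (7.10-fold, adjusted p = 1.96e-09). Cxcl10, a ligand of the same receptor, rose 1.35-fold with overlap (95% interval of the log2 difference 0.10 to 0.76, adjusted p = 0.0312), and Cxcl11 did not pass. The Cxcl10 call was lost without vehicle replicate 1 or 2 or unmasked replicate 3 or 4 (adjusted p = 0.0770 to 0.130), in the fit on the 10 libraries alone (adjusted p = 0.145) and with the muscle covariate (adjusted p = 0.0955). Cxcr3 and Cxcr6, receptors of effector T cells, rose 7.92- and 36.05-fold, and Ccl5 and Cxcl16 2.65- and 3.53-fold. Of 13 monocyte chemokine and growth factor genes 9 rose (69.2% called). Of these 2 had groups without overlap, Csf2rb and Csf2rb2, receptor chains for myeloid growth factors. Ccl2 and its receptor Ccr2 did not pass the test, and 3 of 13 rose with the 2 libraries a group that hold least skin.

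Neutrophil genes and chemokines rose in 13 of 16 cases (81.2% called, against 45% of all genes), from low levels. S100a8, an alarmin of neutrophils, had 0.524, 0.534, 0.809, 0.844 and 5.25 CPM with vehicle and 2.805, 7.05, 3.84, 6.85 and 14.7 CPM with drug (4.43-fold, adjusted p = 0.00451). Vehicle replicate 5 stood apart from the rest of its group and inside the unmasked range. Csf3r, the G-CSF receptor, rose 8.06-fold, the lectin Clec4d 15.4-fold and the CXCR2 ligand Cxcl3 7.90-fold. Ly6g, which defines neutrophils, had 2 counts in all in each group, and Cxcr2 and Mmp9 did not pass the test.

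Macrophage genes rose in 18 of 20 cases and 1 fell (95% called, against 45% of all genes), with a median log2 difference of 1.55. Lyz2 rose 6.52-fold, Fcgr4, an activating Fc receptor, 6.25-fold and Cd68 3.37-fold. Adgre1 and Csf1r, which define the lineage, rose 3.32- and 3.36-fold with overlap between the groups. Among 17 genes linked to tissue residence or alternative activation 8 rose (47.1%, against 23.2% higher over all genes), 6 to 12 with 1 library left out and 11 with the 2 libraries a group that hold least skin, and Mrc1 (21.5 and 57.4 CPM), Cd163, Folr2, Lyve1, Retnla and Chil3 did not pass. Fcrls was the macrophage gene that fell. Of 14 monocyte genes 8 rose and 1 fell (64.3% called, against 45% of all genes), with log2 differences from -2.24 to 3.73. Ly6a rose 3.63-fold and Ly6i 13.2-fold, both of a family of near copies that interferon raises in many cell types.

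Enzymes that use arginine, tryptophan and aconitate rose in 9 of 11 cases (81.8% called, against 45% of all genes), all 9 without overlap. Nos2, which makes nitric oxide from arginine (chr11:78920787-78960226), had 62.9, 22.65, 46.3, 56.8 and 53.1 CPM with vehicle and 306, 362, 266, 403 and 261 CPM with drug (6.615-fold, adjusted p = 7.31e-10). Arg1, which splits the same amino acid and is often taken as a mark of the opposite macrophage state, had 27.3, 25.2, 53.2, 31.0 and 32.7 CPM and 131, 250.2, 126, 239 and 294.5 CPM (6.15-fold, adjusted p = 7.50e-07). Both arginine enzymes thus rose, as did the transporter Slc7a2 (11.1-fold). Ido1, which breaks down tryptophan, rose 10.85-fold and Acod1, which makes itaconate, 9.24-fold. Kmo and Gch1 did not pass the test.

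Of 15 inflammatory cytokine genes 12 rose (80% called, against 45% of all genes). Il1a and Il1b rose 15.6- and 3.60-fold, their antagonist Il1rn 5.50-fold and Tnf 4.07-fold, while Il6 averaged 0.7096 and 0.692 CPM and did not pass. All 16 complement genes tested rose (100% called, against 45% of all genes), 11 without overlap, with a median log2 difference of 1.74. C3, the central component, ranged over 15.9 to 85.8 CPM in vehicle and 144 to 663 CPM in unmasked tumours (7.84-fold, adjusted p = 8.76e-05), and C4b, Cfb and Serping1 rose 6.055-, 3.40- and 4.98-fold. The 3 C1q chains rose 2.74- to 3.50-fold with overlap. Mast cell genes rose in 6 of 10 cases (60% called, against 45% of all genes). An example is Cpa3, a carboxypeptidase of mast cell granules, at 3.64-fold.

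Among 14 genes of conventional dendritic cells 6 rose and none fell (42.9%, against 45% of all genes called and 23.2% called higher). Xcr1 and Clec9a, which define the cross-presenting subset, went from means of 0.0859 and 0.0740 CPM to 1.305 and 0.932 CPM (14.7- and 12.1-fold), and their transcription factors Batf3 and Irf8 rose 2.11- and 3.38-fold. Flt3, Zbtb46 and Cd209a did not pass. Of 13 genes of migratory dendritic cells 5 rose and 2 fell (53.8% called, near the 45% of all genes), and 3 rose without the skin-holding libraries, without vehicle replicate 1 and without vehicle replicate 4. Ccr7, the lymph node homing receptor, rose 2.11-fold, and Fscn1, which is abundant in many tumour lines as well, fell by 0.50 on the log2 scale. Of 9 B cell genes 1 rose, Fcrla, and 1 fell, Cd79a (22.2% called). Fcrla lost its call without vehicle replicate 1, 3 or 4 or unmasked replicate 3 or 4 (adjusted p = 0.0643 to 0.0927) and without the skin-holding libraries (adjusted p = 0.0726), Cd79a lost it without unmasked replicate 2 (adjusted p = 0.0595), and without vehicle replicate 2 the genes that rose numbered 2.

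Cell cycle genes were lower by small amounts, with log2 differences from -0.68 to -0.007. Of 32 tested 28 fell, none rose, and 26 did not overlap, with a median log2 difference of -0.44, against 21.8% lower over all genes. Their list level ran from 7.42 to 7.53 over vehicle and from 6.93 to 7.25 over unmasked libraries. Plk1, a kinase of mitosis, had 136, 138, 144, 151 and 143 CPM with vehicle and 111, 90.4, 101, 82.25 and 91.75 CPM with drug (log2 -0.58 ± 0.08, adjusted p = 1.25e-06). Ccnb2, a mitotic cyclin, and Tyms, which makes thymidylate, fell by 0.68 and 0.64 on the log2 scale, and all 6 replicative helicase genes from Mcm2 to Mcm7 fell by 0.38 to 0.47. Mki67, the usual proliferation mark, had 521, 413, 430.3, 538 and 474 CPM and 459, 340.1, 427, 387 and 435 CPM and did not pass (95% interval of the log2 difference -0.47 to 0.04). In these bulk samples a smaller share of tumour cell RNA and fewer dividing cells cannot be told apart. The count was 28 without the skin-holding libraries and 15 with the 2 libraries a group that hold least skin.

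Cholesterol synthesis was the list in which every member fell: 21 of 21, 20 without overlap, with a median log2 difference of -0.73. The list level ran from 6.80 to 7.20 over vehicle and from 6.12 to 6.56 over unmasked libraries. Hmgcs1, the enzyme that opens the pathway (chr13:119690351-119708260), had 419, 407, 299, 369.5 and 319.5 CPM with vehicle and 254, 199.6, 214, 212 and 184 CPM with drug, 0.586 times the vehicle level (log2 -0.77 ± 0.14, adjusted p = 7.34e-05). Sqle, which adds the oxygen to squalene, was at 0.593 times, Lss, which closes the sterol rings, at 0.578 times and Cyp51, which removes a methyl group from lanosterol, at 0.554 times the vehicle level. Srebf2, which encodes the sterol-regulated transcription factor of the pathway, was at 0.747 times. The count was 21 without the skin-holding libraries, 21 with the muscle covariate, and 15 with the 2 libraries a group that hold least skin. The letters CACCCCAC form part of a sterol regulatory element. On either strand they were found in 2 of 15 pathway genes with a window and in 3.89% of all genes with one. The stretch before Hmgcs1 is shown because it holds them, in capitals.
Hmgcs1, plus strand, chr13:119690101-119690350: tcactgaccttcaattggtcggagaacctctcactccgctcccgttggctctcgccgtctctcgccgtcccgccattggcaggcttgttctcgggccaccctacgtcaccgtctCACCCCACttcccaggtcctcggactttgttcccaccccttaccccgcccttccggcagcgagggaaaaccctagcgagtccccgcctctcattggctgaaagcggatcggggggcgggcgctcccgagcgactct
Neither the GAS core nor the ISRE-like motif was found in the windows of these 15 pathway genes.

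Of 10 fatty acid synthesis genes 8 fell (80%, against 21.8% lower over all genes), with a median log2 difference of -0.45. Without the skin-holding libraries 5 fell. Acly, which supplies acetyl-CoA, fell by 0.46, and Scd2 and Scd1, which desaturate fatty acids, fell by 0.61 and 0.55. Ribosome biogenesis and MYC target genes fell in 12 of 21 cases (57.1%, against 21.8% lower over all genes), by small amounts (median -0.27). Without the skin-holding libraries 5 of 21 fell. Myc itself averaged 208 and 189 CPM and did not pass. Nuclear oxidative phosphorylation genes fell in 10 of 23 cases (43.5%, against 21.8% lower over all genes), with a median of -0.15. Without the skin-holding libraries 7 fell. Cytosolic ribosomal protein genes fell in 3 of 28 cases (10.7%). None fell without those libraries, 1 without unmasked replicate 4 and 5 without unmasked replicate 1. Glycolysis and hypoxia genes were mixed (27.3% called, against 45% of all genes). Of 22 genes 4 rose, among them Vegfa 1.51-fold, and 2 fell, Ldha and Ankrd37. The higher count was 2 without vehicle replicate 2 or unmasked replicate 2, and the lower count was 0 without the skin-holding libraries and 1 without vehicle replicate 3 or 4 or unmasked replicate 4 or 5.

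Of 20 genes of death receptors, pyroptosis and necroptosis 13 rose and 3 fell (80% called, against 45% of all genes). With the 2 libraries a group that hold least skin 7 rose and 1 fell. Casp1 and Gsdmd, which open the pyroptotic pore, rose 1.69- and 1.76-fold, Pycard, the inflammasome adaptor, 3.59-fold and Nlrp3 4.29-fold. Casp8 and Tnfrsf10b fell by 0.16 and 0.25 on the log2 scale. Of 18 BCL-2 family and p53 target genes 7 rose, for example Bcl2a1b 3.275-fold and Mdm2 1.66-fold, and Bmf and Bad fell. Together 50% of that list passed, near the 45% of all genes, and 4 rose with the 2 libraries a group that hold least skin.

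Of 22 fibroblast and collagen genes 2 rose and 2 fell (18.2% called, against 45% of all genes). The number that rose depended on single libraries: it was 7 without unmasked replicate 1, 5 without vehicle replicate 3 or 5, and 1 without vehicle replicate 2 or 4 or unmasked replicate 2 or 4. Col6a1 and Col6a2, chains of the same microfibril, fell by 0.82 and 0.96 on the log2 scale: Col6a1 ranged over 1713 to 3086 CPM with vehicle and 1011 to 1626 CPM with drug. Unlike them, the fibril collagen gene Col1a1 averaged 666 ± 319 and 856 ± 367 CPM (95% interval of the log2 difference -0.39 to 1.11). Of 17 matrix protease genes 7 rose (41.2%, against 23.2% higher over all genes), led by Mmp8 (19.25-fold) and the macrophage elastase Mmp12 (12.55-fold). Of 28 endothelial genes 2 rose and 3 fell (17.9% called). The number that rose was 6 without unmasked replicate 1, 5 without vehicle replicate 3 and 4 without vehicle replicate 5 or unmasked replicate 2, and none fell with the 2 libraries a group that hold least skin. Icam1, an adhesion molecule for leukocytes that other cells carry too, rose 3.65-fold and Angpt2 1.62-fold, and the sprouting genes Apln, Esm1 and Dll4 fell by 0.88, 1.27 and 0.66 on the log2 scale. Pecam1, which defines endothelium, averaged 41.0 ± 6.23 and 49.25 ± 12.9 CPM (interval -0.16 to 0.69). The erythroid genes Alas2 and Slc4a1 rose, and both were highest in unmasked replicate 4, in which Alas2 stood at 58.0 CPM and Slc4a1 at 5.28 CPM. Without that library the log2 difference of Alas2 was 0.69 (adjusted p = 0.459) and that of Slc4a1 2.45 (adjusted p = 0.0200), in place of 4.40.

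**Figure D3:**
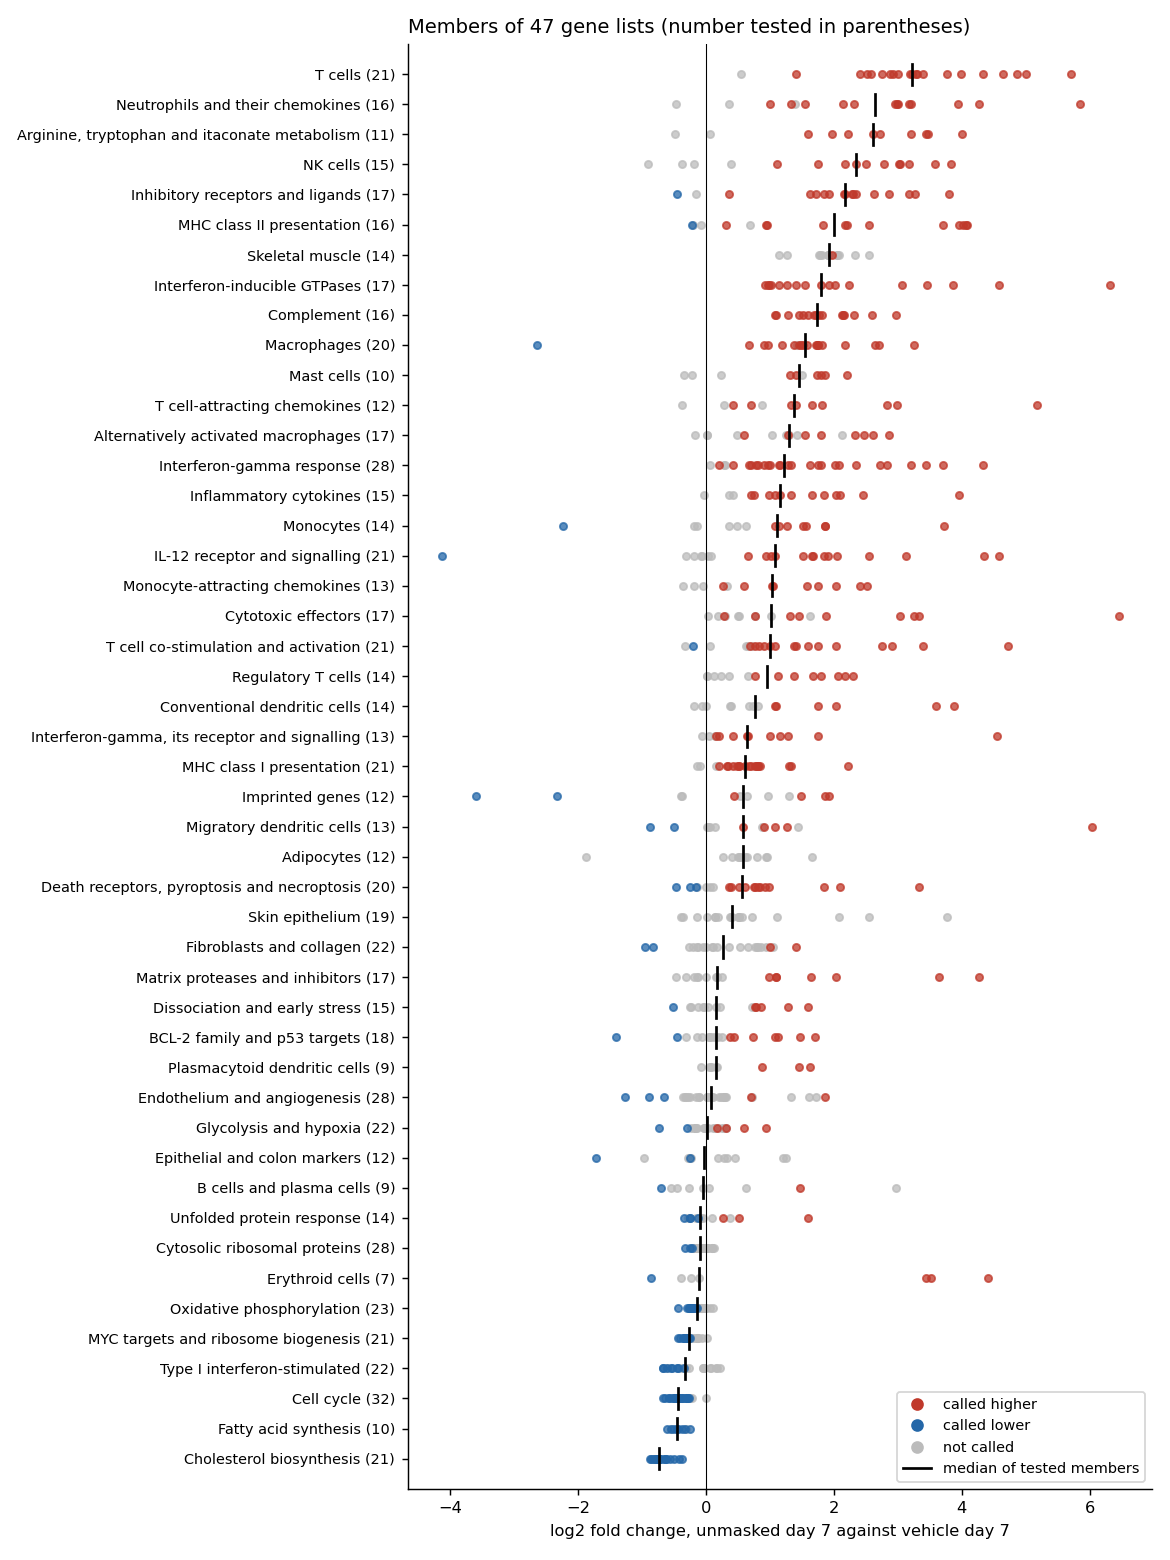
Log2 differences of the members of 47 gene lists, unmasked minus vehicle at day 7, with 1 point per gene and a bar at each list's median. The median is highest for T cell genes (3.23) and lowest for cholesterol synthesis (-0.73), whose 21 points all lie below 0.

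The 5 unmasked libraries differed among themselves in how far they lay from vehicle. Unmasked replicate 1 was the lowest of its group for 2198 of the 3595 genes that rose (61.1%) and the highest for 2021 of the 3378 that fell (59.8%). It had the lowest level for 33 of the 47 lists, and unmasked replicate 4 the highest for 20. Levels of 23 of the 47 lists did not overlap between the groups. Unmasked replicate 1 also held the least skin keratin RNA and the least muscle RNA of its group (0.578 and 211 CPM), and their part in its levels was not tested. With that library left out the counts were 3679 higher and 3665 lower.

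**Figure D4:**
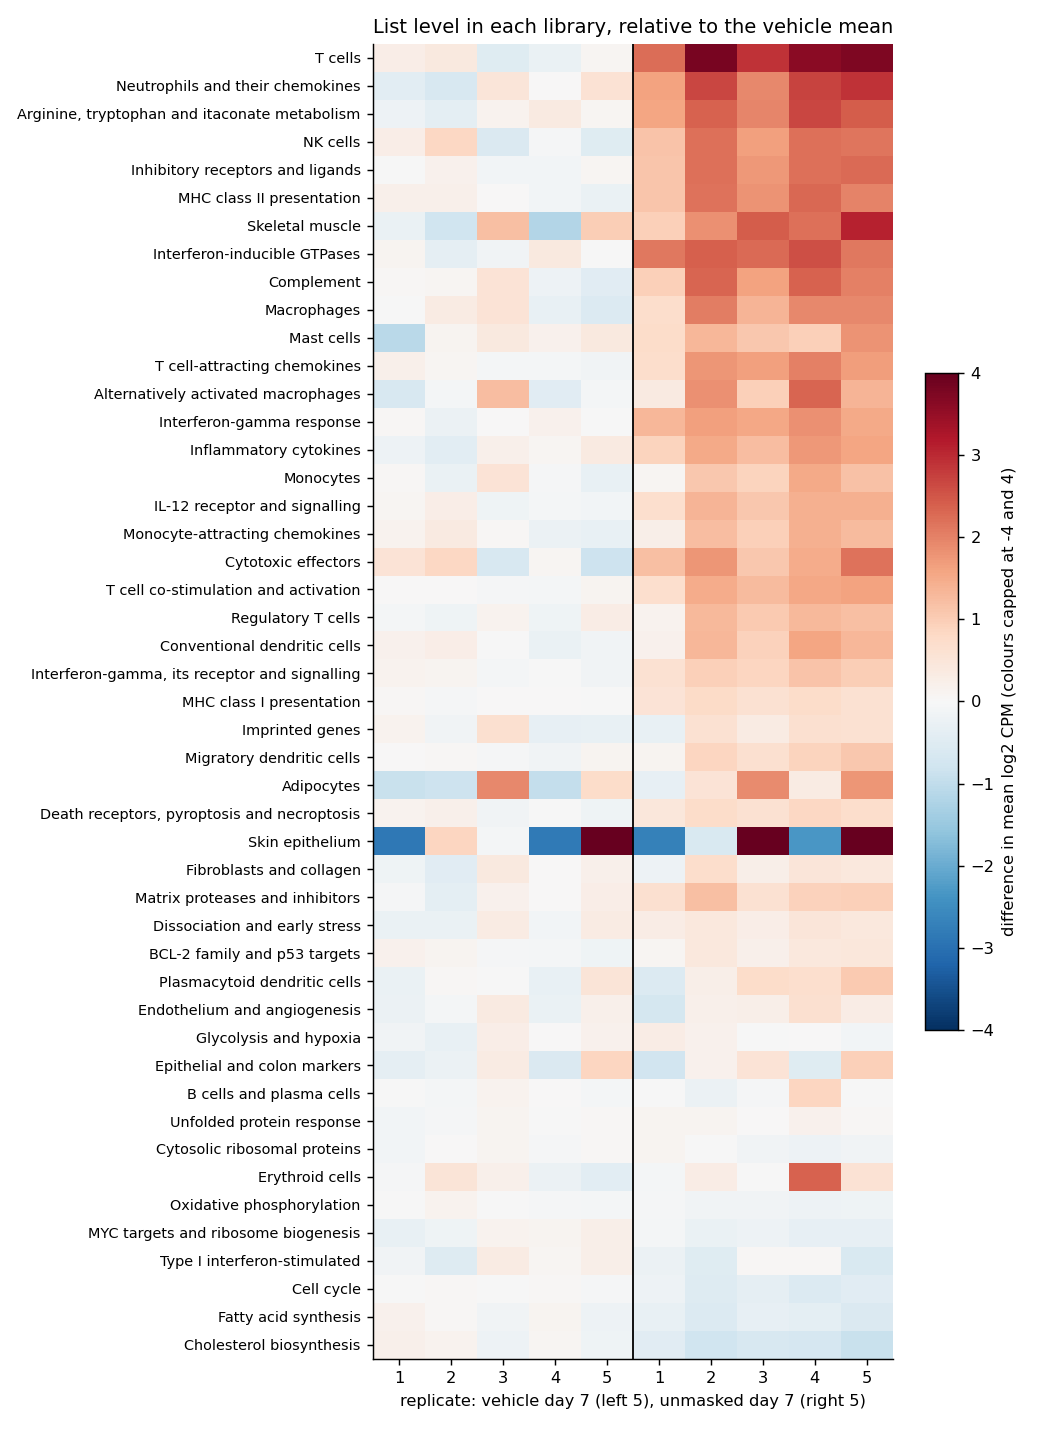
Level of each list in each of the 10 libraries, as mean log2 CPM of its members minus the mean over the 5 vehicle libraries, with colours held at -4 and 4. T cell, MHC class II and GTPase lists lie above every vehicle library in all 5 unmasked libraries, and cell cycle and cholesterol lists lie below.

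The effect at day 7 was set against that at day 4, measured in separate groups of 5 unmasked and 5 vehicle tumours. The change of effect passed the test for 798 of 15482 genes (5.15%), 457 with a more positive and 341 with a more negative difference at day 7. Cd4 stood out among the genes described above: it averaged 1.07 CPM with vehicle and 1.08 CPM with drug at day 4 (log2 0.02 ± 0.40), and its effect was larger at day 7 by 2.73 ± 0.58 (adjusted p = 0.0177). Cd8a was already raised at day 4 (log2 2.48 ± 0.53) and its effect grew by 2.53 ± 0.73 (adjusted p = 0.0441), and that of H2-Ab1 by 1.86 ± 0.45 (adjusted p = 0.02535). Lag3, Cxcr3 and the scavenger receptor Stab1 gained 1.46 ± 0.31, 2.48 ± 0.55 and 1.23 ± 0.27. For these 6 genes the difference between drug and vehicle was thus larger at the later day.

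Ifng, Irf1 and Gbp2b already differed at day 4, by amounts close to those of day 7. Ifng differed by 4.45 ± 0.56 on the log2 scale at day 4, Irf1 by 1.17 ± 0.07 and Gbp2b by 6.27 ± 0.65, and their change of effect did not pass the test. Gzmb and Ncr1 had passed the test at day 4, at 1.41 ± 0.42 (adjusted p = 0.0161) and 1.47 ± 0.49 (adjusted p = 0.0291), and did not pass at day 7, but the change itself was not called either (adjusted p = 0.133 and 0.316). The calls of a changed effect were fragile: of 33 named genes called, 7 were called in every one of 20 fits that left out 1 library (Cd4, Csn3, Lag3, Cxcr3, Stab1, Vegfa and Aplnr), and 2, Csn3 and Lag3, were called without the libraries over 100 CPM of skin keratins. None changed sign in those fits. Over all genes the count ranged from 132 without unmasked day 7 replicate 2 to 3025 without vehicle day 4 replicate 5.

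**Figure D5:**
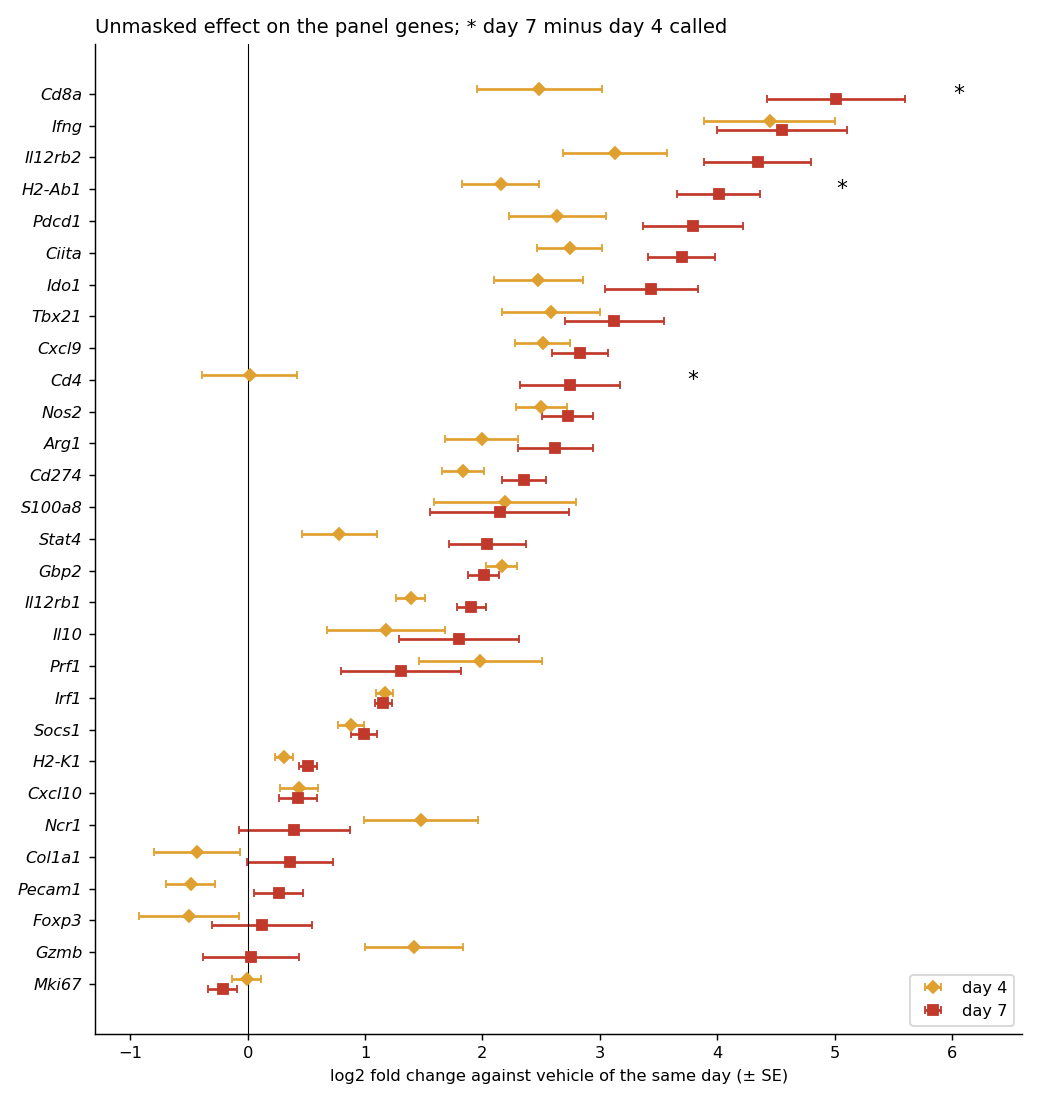
Log2 difference ± standard error, unmasked minus vehicle, for 29 of the 30 panel genes at day 4 (orange) and day 7 (red), with an asterisk where the change of effect passed the test. Asterisks stand at Cd8a, H2-Ab1 and Cd4, and Cd4 lies at 0.02 on day 4 and 2.75 on day 7.

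Against tumours given masked mXTX301, also at day 7, no gene passed the test (0%, with 898 genes at an unadjusted p under 0.05 and 14 called by DESeq2). The doses differed, 0.03 mg/kg of unmasked molecule and 0.39 mg/kg of mXTX301, so the values below set those doses side by side and do not compare the molecules at a matched dose. Il12rb1 averaged 144 ± 12.8 CPM with the unmasked molecule and 161 ± 22.2 CPM with mXTX301 (log2 difference -0.16 ± 0.12). H2-Ab1 differed by -0.28 ± 0.31, Cxcl9 by -0.11 ± 0.22 and Cd8a by 0.63 ± 0.49. Over the 30 panel genes the log2 differences, unmasked minus masked, ran from -0.48 ± 0.46 for Ifng to 1.15 ± 0.57 for S100a8, and the smallest adjusted p was 0.738. The 95% interval of the log2 difference was -0.03 to 2.33 for S100a8 and -0.37 to 1.64 for Cd8a, so a missing call does not show that the tumours were alike.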

How the data were processed

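Counts were the authors' deposited whole-number counts per gene, made per the submitters' processing notes with cutadapt, FastQC 0.11.9, STAR 2.7.10a and HTSeq 0.11.1 on mm10; the roles and settings of the tools, and whether the libraries keep strand, are not given in the sources used here. Of 24557 entries 5 repeated a symbol and were dropped. In R 4.3.3 with edgeR 4.0.16, filterByExpr kept 15482 of 24552 genes, TMM factors were computed, and the 6 group means were fitted over the 30 libraries with robust dispersion estimates. The common coefficient of biological variation was 27.3%, with 24 residual degrees of freedom. Each contrast used edgeR's quasi-likelihood test with Benjamini-Hochberg adjustment over 15482 genes. The fit was tested on simulated counts. Groups came from the titles. Libraries with the same replicate number were not paired: the mean correlation of their deviations was 0.231 against -0.0498 for others, 3 of 5 pairs exceeded 0.1, and 2 of 5 libraries were closest to their own number. List levels are mean log2 CPM with a prior count of 2. Coordinates and promoters are from RefSeq, GRCm38.p6.

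The genes, the 47 lists and the 30-gene panel were chosen with earlier results of these data known. Genes were named by rule: the panel, the 10 largest rises and falls among genes that averaged 1 CPM or more and did not overlap, up to 4 members of each list by p, and the 5 largest changes of effect each way. Predicted genes, clone names and pseudogenes were left out of the largest rises, falls and changes of effect. Other list members are named for their role, with their values seen. Some genes of the panel and lists are counted with them but are not reported here by name or shown singly. The authors' table of log2 values was not used. Alternatives were DESeq2 1.42.0, another scaling, no filter, a replicate block, skin and muscle covariates, and libraries left out.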

Additional observations from a re-analysis of the deposited data

Results flagged for a closer look

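In groups of 5 libraries, 11 of 190 values or list levels checked (5.79%) had a highest or lowest library set apart from its group by Dixon's criterion, which chance alone gives in about 1 in 20. Unmasked replicate 4 had the highest list level of B cells (1.66) and of erythroid cells (4.07, mean log2 CPM). Unmasked replicate 1 had the lowest level of the regulatory T cell list (1.24), and unmasked replicate 5 the highest Gzmb (33.9 CPM). Among the vehicle libraries, replicate 1 had the lowest mast cell level (-1.16), replicate 2 the highest Stra6 (51.5 CPM), replicate 3 the highest Arg1 (53.2 CPM) and replicate 4 the highest Shroom2 (23.1 CPM). Vehicle replicate 5 had the highest S100a8 (5.25 CPM), Slc17a6 (0.0750 CPM) and Apol7c (0.195 CPM).

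The effect of the unmasked molecule differed between day 7 and day 4, by the test of the difference itself, for 33 named genes. The values are log2 differences, day 7 minus day 4. Among presentation genes the effect was larger at day 7 for H2-Ab1 by 1.86, H2-Aa by 1.77, Cd74 by 1.60, Cd86 by 1.17 and Apol7c by 4.43. Among lymphocyte genes and chemokines it was larger for Cd4 by 2.73, Cd8a by 2.53, Cxcr3 by 2.48, Lag3 by 1.46, Ccl5 by 1.06 and Fcrla by 3.13. Among myeloid genes it was larger for Csf3r by 2.08, Ly6i by 1.95, Csf2rb2 by 1.69, Nlrp3 by 1.36, Acod1 by 1.24 and Stab1 by 1.23. Elsewhere it was larger for Aplnr by 3.42, Fmod by 3.26, Nov by 3.03, Fap by 1.90, Vegfa by 0.73 and Zfp36 by 0.72. It was more negative at day 7 for Tex11 (-2.96), Adgrl3 (-2.06), Acsm3 (-2.02), Robo1 (-1.996), Slc5a4a (-1.99) and Csn3 (-1.92), and slightly so for Me1 (-0.41), Acly (-0.39), Kif20a (-0.37) and Mcm5 (-0.31). Of these 33 genes, 7 were called in all 20 fits that left out 1 library.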

How the results depend on the processing

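The day 7 counts of 3595 higher and 3378 lower stayed within 1.5 times under DESeq2 (3721 and 3658) and other size factors (3528 and 3485). They did so with no low-count filter (3445 and 3576), a skin covariate (3691 and 3373) and only the 10 libraries (3165 and 3077). The same held for fits chosen after seeing the data. These were a muscle covariate (3486 and 3123) and leaving out the libraries over 100 CPM of skin keratins (2998 and 2802). Those libraries were 8 of 30, 3 of them in these groups. The counts moved without the 12 of 30 libraries rich in skin, 6 of them in these groups, to 1518 and 897. Leaving out 1 library at a time gave 3082 to 3679 higher and 2932 to 3665 lower. With the replicate number as a block, 3613 rose and 3334 fell, the changed effects numbered 698 and the difference from mXTX301 0; Prf1 (adjusted p = 0.0812) was lost under the block, and Actn3 (adjusted p = 0.0267), Mylpf (adjusted p = 0.0241) and Tnni2 (adjusted p = 0.0312) were gained. Prf1 was lost as well with no filter (adjusted p = 0.0598) and with the skin covariate (adjusted p = 0.0527). The count of changed effects between days, 798, was the least stable: 1722 by DESeq2, 473 with no filter, 125 without libraries over 100 CPM of skin keratins, 0 without the skin-rich libraries, and 132 to 3025 when 1 library was left out. Against mXTX301 0 genes were called, 14 by DESeq2 and 0 to 5 with 1 library left out. Krt10, which did not pass the test, reversed to -1.62 (adjusted p = 0.0263) without the libraries over 100 CPM of skin keratins; the cause was not tested. Genes near the limit of detection with vehicle, such as Slc17a6 and Gzmk, have folds that depth limits, and strand, near copies and mixed tissue limit the rest.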

Other observations

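Several genes outside the lists moved strongly and without overlap between the groups; they were picked after their values were seen and are given as values only. Hk3, the hexokinase of myeloid cells, rose from a mean of 11.4 ± 1.38 to 129 ± 48.2 CPM (SD, n = 5) and Itgb7, the integrin chain of gut-homing lymphocytes, from 8.645 ± 0.776 to 77.8 ± 30.9 CPM. The formyl peptide receptors Fpr1 and Fpr2 rose 11.2- and 12.1-fold. Psap, the saposin precursor, rose from 925 to 3689 CPM, Cd36, a fatty acid receptor, 7.12-fold and Abca1, which exports cholesterol, 5.84-fold. The coagulation factor genes F7 and F10 rose 8.38- and 8.08-fold, and Tgm2, a transglutaminase, from 100.5 to 494 CPM. Apol6, Gimap3 and Nlrp1b rose 9.79-, 13.1- and 10.0-fold.

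Among genes that fell in the same way, Igfbp3, an IGF-binding protein, went from 125 ± 18.9 to 42.3 ± 8.05 CPM and Ddit4, a stress-induced inhibitor of mTORC1, from 670.2 ± 89.4 to 319 ± 58.2 CPM. Rdh10, which makes retinal, was at 0.427 times and Tsc22d1 at 0.459 times the vehicle level. Snai1, a factor of the mesenchymal state, and Ncam1 were at 0.561 and 0.543 times, and Slbp and Lmnb1, which serve histone messages and the nuclear lamina, at 0.627 and 0.652 times.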
